A study of Homo sapiens with 10 samples.

Results

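Nuclear receptors are transcription factors that bind small lipophilic ligands such as steroids, bile acids, retinoids, thyroid hormone and fatty acids, and 40 of their genes were followed here by gene symbol. The tables listed 60554 genes, and the level of each was the sum of its transcripts' estimated counts. Of the 40 receptor genes, 24 passed the expression filter and were tested, and 16 did not. To pass, a gene needed a protein-coding transcript and a level above 3 RPM, meaning reads per 1000000 of all counts of a library, in at least 20% of the libraries, and 11640 genes did.

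Most members of the family share a DNA-binding domain with zinc fingers and a ligand-binding domain, and many act as heterodimers with a retinoid X receptor (RXR). Without ligand many of them hold corepressors at their target genes, and ligand binding exchanges these for coactivators. In the intestine the family is known for sensing bile acids, oxysterols, fatty acids, vitamin D and foreign compounds, while the orphan members have no established physiological ligand or are regulated mainly by their own level.

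The study addressed LHFPL3-AS2, a long non-coding RNA, in Caco-2, a human colon carcinoma line that forms an intestine-like epithelium. All cells carried dCas9-KRAB, a catalytically dead Cas9 fused to a repressor domain, in 1 puromycin-selected clone, so that the groups describe that clone. The clone was then infected with lentivirus bearing an empty guide plasmid (gCtl, 5 libraries), guide g1 (3 libraries) or guide g2 (2 libraries) against LHFPL3-AS2. RNA was read by QuantSeq, which sequences the 3′ end of polyadenylated RNA. The labels do not say whether libraries of a group came from separate cultures. The p-values therefore measure the spread between these libraries, which may be technical. The labels also give no replicate numbers. Those used here follow the order of the samples within a group and match no libraries across groups.

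Estimated counts per library ran from 3838803 to 8730468. LHFPL3-AS2 stood at 1.73, 0.84, 3.73, 1.73 and 3.12 RPM in the gCtl libraries, at 3.07, 3.95 and 2.03 RPM in those labelled g1, and at 2.16 and 6.01 RPM in those labelled g2. It was not lower in the libraries labelled as knockdown (difference in mean log2(RPM + 1) 0.47, exact two-sided permutation p = 0.19), so the groups are called by their labels throughout. The study also measured this RNA by qPCR, which was not analysed here. All 10 intestinal epithelial markers exceeded 3 RPM in at least 1 library, and 9 of them passed the filter. Their summed levels were 1830 to 2510 RPM in gCtl, 1840 to 2280 RPM in g1 and 1980 to 2020 RPM in g2. Of 5 leukocyte markers none passed 3 RPM in any library, and of 6 fibroblast and 3 endothelial markers 1 each did in at least 1 library. Summed levels in gCtl and g1 were 0.579 to 2.02 and 2.25 to 3.77 RPM for the leukocyte markers and 2.15 to 3.66 and 4.93 to 10.1 RPM for the endothelial markers, and their part in the results was not tested. On the first principal component of all tested genes (44.5% of the variance) gCtl lay at -38.9 to -14.4, with gCtl replicate 5 at the upper end, and the libraries with a guide at 17.3 to 51.3. Genes past the filter held 68.0 to 74.5% of the counts in gCtl, 61.0 to 72.2% in g1, and 55.0 and 58.2% in g2. RPM was taken over all counts of a library, whereas the tests used TMM normalization, so an RPM ratio for g2 lies below the tested fold change. In bulk RNA, fewer cells of a type and less RNA per cell cannot be told apart.

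NR2F1, NR5A2, PPARA and THRB were higher with both guides, and the sequences upstream of their starts are shown because these genes moved in the same direction. The RefSeq promoter table (GRCh38.p14) held 36 of the 40 members. Each window covers up to 250 bases before the start and ends where GENCODE 29 places the first transcribed base, so that 108 bases were left out for NR5A2, 48 for THRB and 5 for PPARA. Capitals mark matches on either strand to 4 motifs. These were AGGTCA, the half-site that many nuclear receptors bind, the TATA box as TATAAA, the CCAAT box by its 5 letters, and the GC box as GGGCGG, whose matches may overlap each other.
NR2F1, chr5:93582972-93583221, plus strand: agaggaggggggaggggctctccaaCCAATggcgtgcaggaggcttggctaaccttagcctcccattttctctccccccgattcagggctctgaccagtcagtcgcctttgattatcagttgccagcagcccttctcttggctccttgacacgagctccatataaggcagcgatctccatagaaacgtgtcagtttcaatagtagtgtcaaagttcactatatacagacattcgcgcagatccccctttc
NR5A2, chr1:200027460-200027601, plus strand: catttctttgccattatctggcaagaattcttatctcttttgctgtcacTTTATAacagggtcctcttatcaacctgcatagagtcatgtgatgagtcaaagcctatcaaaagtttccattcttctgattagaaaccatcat
PPARA, chr22:46150276-46150520, plus strand: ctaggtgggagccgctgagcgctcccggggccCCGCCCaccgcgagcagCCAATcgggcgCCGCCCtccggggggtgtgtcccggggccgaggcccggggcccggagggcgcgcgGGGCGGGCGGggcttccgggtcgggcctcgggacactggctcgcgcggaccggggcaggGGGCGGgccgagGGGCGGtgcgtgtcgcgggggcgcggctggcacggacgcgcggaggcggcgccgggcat
THRB, chr3:24495757-24495958, minus strand: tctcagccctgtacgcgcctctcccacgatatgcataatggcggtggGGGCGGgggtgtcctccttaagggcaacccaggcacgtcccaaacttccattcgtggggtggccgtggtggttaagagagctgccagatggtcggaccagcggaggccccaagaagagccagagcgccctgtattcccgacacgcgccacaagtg

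The PPARA stretch held 84.1% G or C and 6 GC boxes, and the NR5A2 stretch held 36.6% G or C with 1 TATA box match on the reverse strand. The NR2F1 stretch held 1 CCAAT box at 52.4% G or C, and the THRB stretch 1 GC box at 62.9%. The median over all windows was 58.0%. Over 35116 windows of 250 bases, 12.1% held AGGTCA, 10.7% the TATA box, 32.0% the CCAAT box and 42.6% the GC box. Among the 21 tested receptors with a window these motifs were found in 4, 1, 7 and 11. NR5A2 was one of the 4 with AGGTCA, at 84 bases before its RefSeq start, in the stretch left out above. A match of letters is a description of the window and no binding was measured.

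Per unit of transcript length, the most abundant receptor RNA of the gCtl libraries was NR2F2 (COUP-TFII), an orphan receptor, at 77.0 ± 10.2 TPM (transcripts per 1000000, which corrects for length; SD, n = 5). NR1I3, the xenobiotic receptor CAR, followed at 45.9 ± 4.35 TPM. NR2F6, an orphan receptor related to NR2F2, stood at 31.2 ± 7.34 TPM, NR2C1 (testicular receptor TR2) at 30.4 ± 5.75 TPM and the thyroid hormone receptor gene THRA at 29.1 ± 6.90 TPM. Of all neighbours in this order, NR2F2 and NR1I3 were the pair whose gCtl libraries did not overlap, and every other neighbouring pair overlapped. PPARG, NR1H3, PPARA and NR2C2 lay between 20.8 and 16.3 TPM on average. QuantSeq reads the 3′ end, so a correction for transcript length may not suit these counts, and RPM gave another order. By mean RPM in gCtl, NR2F2 (274 RPM) was again first, followed by NR2F6 (58.7), NR1I3 (51.6), NR6A1 (40.7) and PPARA (38.9). Summed over the 40 genes, the receptors took 714 to 812 RPM in gCtl, 665 to 864 RPM in g1, and 564 and 608 RPM in g2, the last group being the one with the lower share of counts in tested genes.

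**Figure D1:**
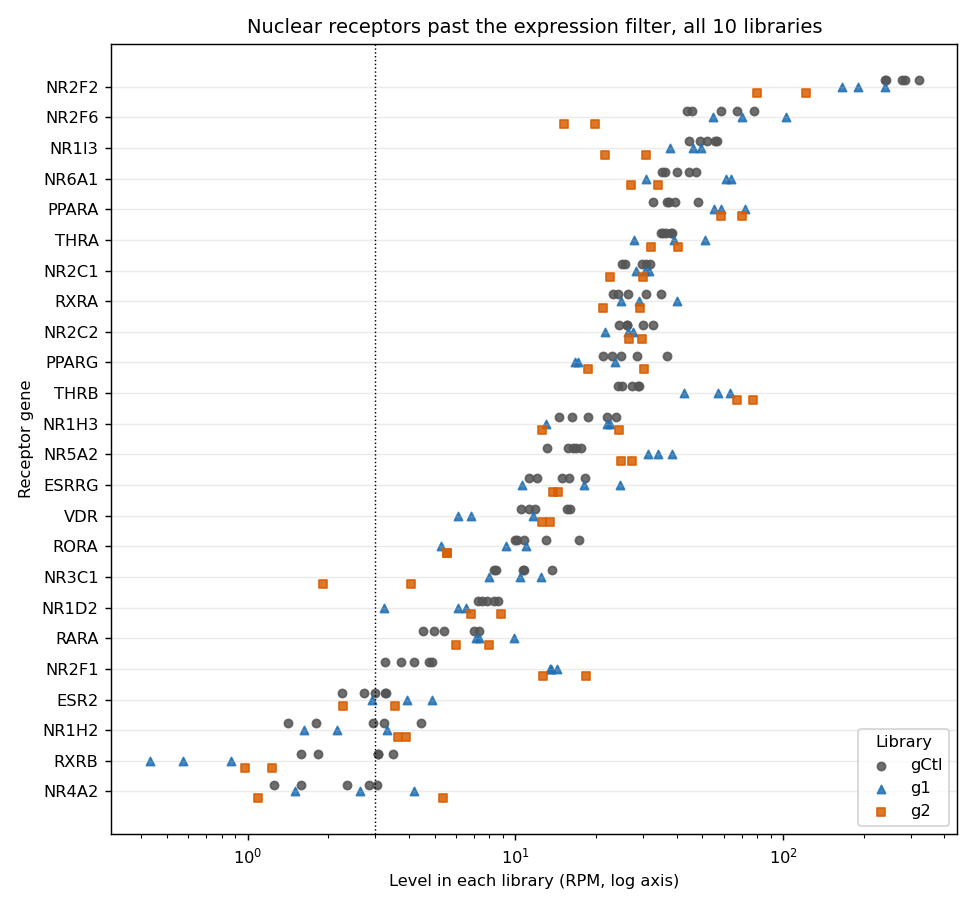
Level of the 24 tested nuclear receptors in each of the 10 libraries, in RPM on a log axis, ordered by the mean in gCtl (grey circles, 5 libraries; blue triangles, 3 g1 libraries; orange squares, 2 g2 libraries). NR2F2 lies furthest right, the g1 and g2 symbols lie to the right of the gCtl symbols for NR2F1, NR5A2, PPARA and THRB, and the dotted line marks the 3 RPM of the filter.

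The 16 receptors under the filter included several that are known for the gut. RXRG was listed at 0 in all 10 libraries. NR1I2 (PXR), the receptor for foreign compounds, was at 0 in every gCtl library and held 1 count in g1 replicate 3 and 2 counts in g2 replicate 2. A count of 0 in gCtl allows up to 3 counts, or 0.529 to 0.782 RPM. NR1H4 (FXR), the bile acid receptor, ranged from 0 to 1.96 RPM over the libraries. NR0B2 (SHP), a receptor without a DNA-binding domain that represses other receptors, ranged from 0 to 2.94 RPM and was highest in g2 replicate 1. NR3C2, the mineralocorticoid receptor, ranged from 0.353 to 3.13 RPM, with its highest level in gCtl replicate 1. NR1D1 (REV-ERBα), a repressor of the circadian clock, ranged from 0.653 to 3.40 RPM, and PPARD from 0.500 to 3.19 RPM. The others were NR4A1, NR4A3, RARB, RARG, RORB, ESRRA, ESRRB, ESR1 and PGR, none of which passed 3 RPM in any library. In an edgeR fit without the level filter, 12 of the 16 held enough counts and 0 were called in any comparison, while 3 had an unadjusted p under 0.05 in 1 comparison each. No other tool was run on them. The smallest adjusted p was 0.0566, for NR0B2 with g2 (log2 fold change 2.28, SE 0.82, edgeR's quasi-likelihood test with Benjamini-Hochberg adjustment).

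The libraries labelled g1 and g2, taken as 1 group of 5, were compared with gCtl by edgeR's quasi-likelihood test, and calls needed both a p of 0.05 or less after Benjamini-Hochberg adjustment and a 1.5-fold change or more. Of the 24 tested receptors 6 were called, against 19.2% of all tested genes. NR2F1, NR5A2, PPARA and THRB rose, as did 8.14% of all tested genes, and NR2F2 and RXRB fell, as did 11.0%. These 6 genes were also the receptors without overlap in RPM between the 2 sets of libraries, which held for 14.5% of all tested genes (4.67% higher and 9.79% lower). RXRB passed the filter only through gCtl libraries, the group in which it was higher, so its place in these counts is in part fixed by the filter. The median log2 fold change was 0.10 over the tested receptors and 0.02 over all tested genes. With g1 alone 4 receptors rose and 1 fell, against 16.8% of all genes called (6.81% higher and 9.94% lower), and with g2 alone 4 rose and 5 fell, against 23.7% (10.7% higher and 13.0% lower). Levels in RPM did not overlap with gCtl for 7 receptors with g1 and for 11 with g2, which held for 25.2% and 38.2% of all tested genes (11.1% higher and 14.1% lower with g1, 11.8% higher and 26.4% lower with g2). Between g2 and g1 the levels of 10 receptors did not overlap, beside 32.9% of all tested genes (10.4% higher and 22.5% lower in g2). Both guides were compared with the same 5 gCtl libraries.

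**Figure D2:**
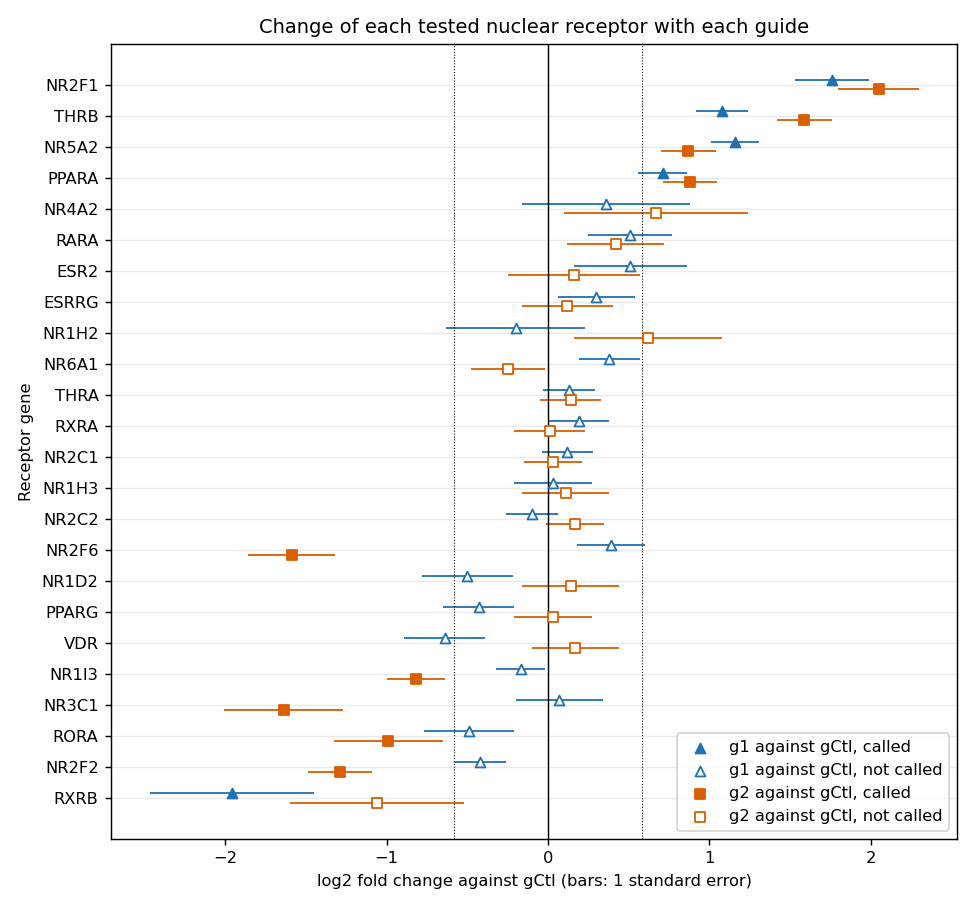
The log2 fold change of each tested receptor against gCtl with g1 (blue triangles, 3 libraries) and with g2 (orange squares, 2 libraries), from the edgeR fit with 3 groups, with bars of 1 standard error. Filled symbols were called, dotted lines mark a 1.5-fold change, and the 4 genes at the top are filled for both guides while NR2F6 and NR3C1 lie apart between them.

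NR2F1 (COUP-TFI), an orphan receptor that acts mostly as a repressor, showed the largest increase among the receptors. Its gene lies at chr5:93583224-93594615 on the plus strand of GRCh38. It stood at 4.17, 3.26, 4.87, 3.75 and 4.76 RPM in gCtl, at 14.2, 13.6 and 13.5 RPM in g1, and at 12.7 and 18.4 RPM in g2. Every library with a guide lay above every gCtl library. NR2F1 rose by a log2 fold change of 1.88 with both guides pooled (SE 0.21, adjusted p = 7.25e-05, edgeR's quasi-likelihood test). The value was 1.76 with g1 and 2.05 with g2, and their difference of 0.29 had an approximate 95% interval of -0.22 to 0.80. In gCtl NR2F1 averaged 4.16 ± 0.68 RPM (SD, n = 5) and ranked 20 among the receptors by RPM, and in the libraries with a guide it averaged 14.5 RPM.

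THRB, the thyroid hormone receptor β, lies at chr3:24117153-24495756 on the minus strand. It stood at 27.4, 28.8, 28.9, 24.1 and 24.9 RPM in gCtl, at 57.0, 42.8 and 63.2 RPM in g1, and at 77.3 and 67.4 RPM in g2. The 3 groups did not overlap, and g2 was highest. The pooled log2 fold change was 1.30 (SE 0.17, adjusted p = 0.000185, edgeR), with 1.08 for g1 and 1.59 for g2. The difference of 0.51 between the guides was not called (adjusted p = 0.135, edgeR), and its interval ran from 0.14 to 0.89. THRA, the other thyroid hormone receptor, ranged from 35.0 to 38.4 RPM in gCtl and from 27.8 to 51.2 RPM in the labelled knockdown libraries, and its log2 fold change of 0.13 had an interval of -0.15 to 0.42. The counts of THRB were split mainly between THRB-201 and THRB-001. THRB-201 held 50.9% of them in gCtl, 36.6% in g1 and 70.8% in g2, and THRB-001 held 38.0, 53.6 and 22.8%. These shares come from 3′ reads divided by Kallisto between transcripts and had no test.

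NR5A2 (LRH-1), a receptor of intestinal crypts and liver that regulates bile acid and steroid synthesis genes, lies at chr1:200027602-200177424 on the plus strand. It stood at 16.8, 16.4, 17.6, 15.8 and 13.1 RPM in gCtl, at 38.4, 34.1 and 31.3 RPM in g1, and at 24.9 and 27.3 RPM in g2. The 3 groups did not overlap, with g2 between gCtl and g1. The pooled log2 fold change was 1.05 (SE 0.15, adjusted p = 0.000283, edgeR). It was 1.16 with g1 and 0.87 with g2, and the difference of -0.29 had an interval of -0.66 to 0.08. Tested against a fold change of at least 1.5 with glmTreat, the g2 call was lost (adjusted p = 0.146, edgeR). NR6A1 (GCNF), a germ cell orphan receptor placed in the same group, ranged from 35.3 to 47.1 RPM in gCtl, from 30.8 to 63.9 RPM in g1 and from 27.1 to 34.1 RPM in g2, and was not called in any comparison.

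PPARA, a fatty acid receptor that drives fatty acid oxidation genes, lies at chr22:46150521-46243756 on the plus strand. It stood at 32.6, 37.4, 39.5, 36.8 and 48.2 RPM in gCtl, at 72.0, 58.9 and 55.4 RPM in g1, and at 58.8 and 70.1 RPM in g2. The highest gCtl library lay below the lowest library with a guide. The pooled log2 fold change was 0.78 (SE 0.14, adjusted p = 0.00152, edgeR), with 0.71 for g1 and 0.88 for g2. The call was lost in all 3 comparisons with gCtl on log2(TPM + 1) and with glmTreat, where the pooled adjusted p was 0.257 with glmTreat in edgeR. PPARA-005, a transcript annotated as a retained intron, held 36.1% of the gene's counts in gCtl, 31.9% in g1 and 23.6% in g2. PPARA-001 was given 0.6% in gCtl and g1 and 24.8% in g2, and PPARA-201, a transcript of similar length, 54.6, 61.8 and 41.0%. These shares come from 3′ reads divided by Kallisto between transcripts and had no test, so a change of transcript use cannot be read from them. PPARG, the fat cell and colon epithelium receptor of the same family, ranged from 21.2 to 36.8 RPM in gCtl and from 16.7 to 30.2 RPM in the labelled knockdown libraries, and its log2 fold change was -0.23 (interval -0.63 to 0.17).

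**Figure D3:**
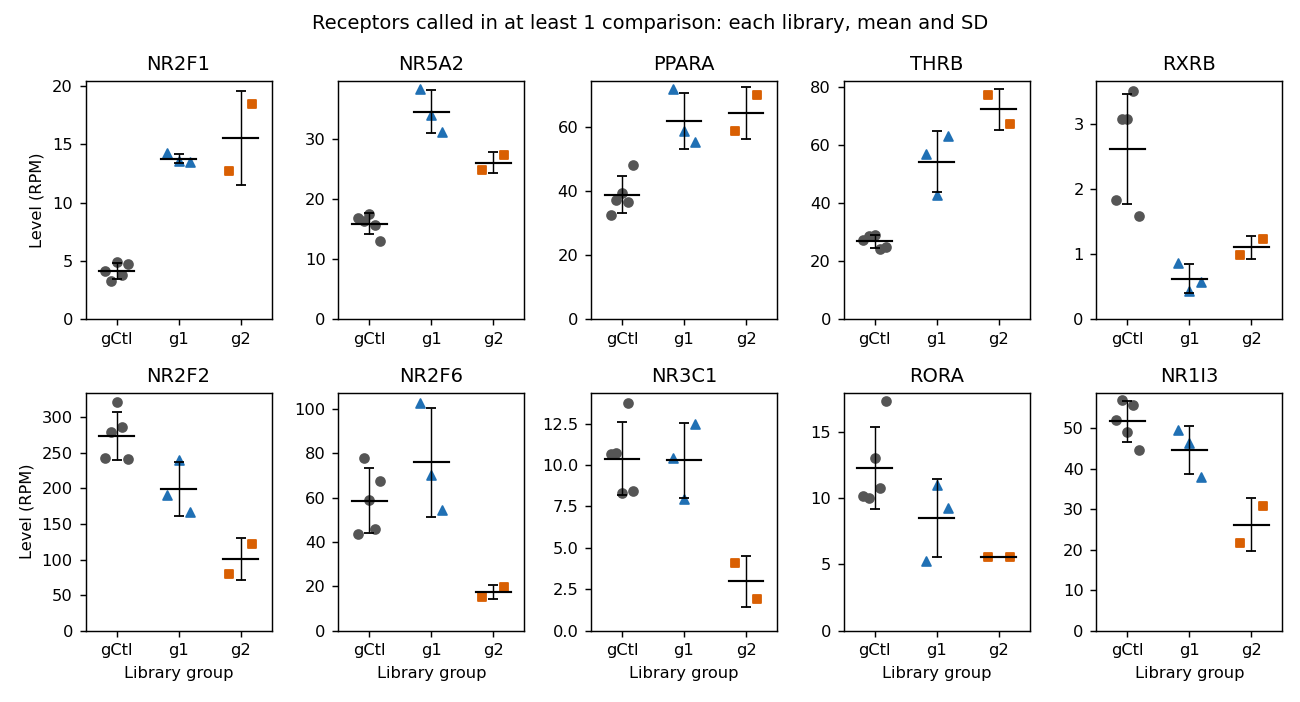
The 10 receptors called in at least 1 comparison, in RPM for each library (points), with the mean (horizontal bar) and SD (error bar) of gCtl (n = 5), g1 (n = 3) and g2 (n = 2); axes start at 0. NR2F1, NR5A2, PPARA and THRB lie above gCtl with both guides, RXRB lies below, and NR2F6 and NR3C1 are low in g2 while their g1 libraries overlap gCtl.

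NR2F2, which represses or activates genes in mesenchyme, vessels and metabolism, moved in the direction opposite to its paralog NR2F1. It lies at chr15:96325938-96340263 on the plus strand. It stood at 242, 279, 322, 286 and 241 RPM in gCtl, at 191, 240 and 166 RPM in g1, and at 79.9 and 122 RPM in g2. All libraries with a guide lay below gCtl, g1 replicate 2 by less than 1 RPM. NR2F2 fell by 0.71 on the log2 scale with the guides pooled (SE 0.21, adjusted p = 0.0228, edgeR) and by 1.29 with g2 (SE 0.20, adjusted p = 0.00039). With g1 the value was -0.42 (adjusted p = 0.0795, edgeR), and g2 lay below g1 by a called difference of -0.87 (SE 0.21, adjusted p = 0.025, edgeR). The pooled call was lost without gCtl replicate 3 (adjusted p = 0.0588, edgeR), gCtl replicate 4 (0.052) or g2 replicate 1 (log2 fold change -0.56) and with glmTreat (0.598), whereas the g2 call held in all 23 alternatives. The difference between the guides lost its call without g1 replicate 1 (adjusted p = 0.0511, edgeR), g1 replicate 2 (0.091) or g2 replicate 1 (0.113) and with glmTreat (0.528). The short transcript NR2F2-002 held 9.5% of the gene's counts in gCtl, 2.2% in g1 and 3.9% in g2. These shares also come from 3′ reads divided by Kallisto and had no test.

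NR2F6 (EAR2), a repressor of the same subfamily at chr19:17231883-17245940 on the minus strand, differed between the guides. It stood at 43.8, 78.0, 58.8, 45.8 and 67.3 RPM in gCtl, at 103, 70.3 and 54.5 RPM in g1, and at 15.2 and 19.8 RPM in g2. The g2 libraries lay far below both other groups, which overlapped. NR2F6 fell by 1.59 on the log2 scale with g2 (SE 0.27, adjusted p = 0.000716, edgeR). With g1 the value was 0.39 (adjusted p = 0.19), and the difference of g2 from g1 was -1.99 (SE 0.29, adjusted p = 0.00124, edgeR). Against g1, 3 of the 24 receptors were lower in g2 and none higher, where 3.42% of all genes were called lower, 1.56% higher and 4.98% in all. At an unadjusted p under 0.05, 7 receptors differed between the guides in edgeR, and DESeq2 called 4. The testicular receptors NR2C1 and NR2C2, also of this subfamily, had pooled log2 fold changes of 0.08 and 0.01. The last 500 bases of the main NR2C2 transcript lie antisense within MRPS25 along their whole length, and the strand setting of the counting is not given, so reads of both genes cannot be told apart. MRPS25 was listed at 79.7 RPM on average in gCtl. For PPARG, ESR2, RORA and RARA between 6.2 and 16.4% of the same stretch occurs in another gene, and for 18 of the 24 tested receptors none does. Only the main transcript of each tested receptor was read. THRA (plus strand, to chr17:40093867) and NR1D1 (minus strand, from chr17:40092787) overlap at their 3′ ends, and the part of this in their levels was not tested.

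NR3C1, the glucocorticoid receptor, which acts on stress and anti-inflammatory genes, lies at chr5:143277931-143435512 on the minus strand. It stood at 10.7, 10.7, 8.30, 13.8 and 8.46 RPM in gCtl, at 10.4, 7.96 and 12.5 RPM in g1, and at 4.08 and 1.91 RPM in g2, where it rested on 25 and 14 counts. The g2 libraries lay below both other groups. NR3C1 fell by 1.64 on the log2 scale with g2 (SE 0.37, adjusted p = 0.00484, edgeR) and by 1.70 relative to g1 (SE 0.39, adjusted p = 0.0193, edgeR). Without g2 replicate 2 the first value was -1.15 and the call was lost (adjusted p = 0.0811, edgeR), and the difference from g1 lost its call without g2 replicate 2 (0.125) or g1 replicate 3 (0.0549) and with glmTreat (0.123). Of the other steroid receptors, ESR2 passed the filter at 2.25 to 3.30 RPM in gCtl and 2.27 to 4.87 RPM in the labelled knockdown libraries and was not called.

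RXRB, a partner of many receptors in heterodimers, lies at chr6:33193588-33200688 on the minus strand and was the lowest receptor called. It stood at 1.82, 3.07, 3.06, 3.50 and 1.59 RPM in gCtl, at 0.869, 0.430 and 0.573 RPM in g1, and at 0.979 and 1.23 RPM in g2. These levels were 7 to 17 counts per library in gCtl and 2 to 9 in the others, and all libraries with a guide lay below gCtl. RXRB passed the filter through 3 gCtl libraries, the group in which it was higher, so its lower level elsewhere is in part fixed by the filter. It fell by 1.53 on the log2 scale (SE 0.42, adjusted p = 0.0169, edgeR) with the guides pooled, a call lost with glmTreat (0.11). With g1 alone it fell by 1.96 (adjusted p = 0.0138), a call lost without g1 replicate 2 (0.0514) or g1 replicate 3 (0.0581) and with glmTreat (0.0725), and with g2 the value was -1.06 (adjusted p = 0.155, edgeR). RXRA, far more abundant in RPM, ranged from 23.2 to 35.1 RPM in gCtl and from 21.3 to 40.2 RPM in the libraries with a guide, with a log2 fold change of 0.12 (interval -0.22 to 0.46).

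NR1I3, at chr1:161229666-161238302 on the minus strand, was lower with g2. It stood at 51.9, 56.8, 48.9, 55.7 and 44.6 RPM in gCtl, at 49.4, 46.3 and 37.9 RPM in g1, and at 21.5 and 30.8 RPM in g2. The g2 libraries lay below all others, and g1 overlapped gCtl. NR1I3 fell by 0.82 on the log2 scale with g2 (SE 0.18, adjusted p = 0.0039, edgeR), a call lost with glmTreat (adjusted p = 0.209). Its main transcript NR1I3-009 held 98.3% of its counts over all libraries, and 78.7% of the 31-base words in the last 500 bases of that transcript also occur antisense in TOMM40L. TOMM40L itself was listed at 3.52 to 11.4 RPM in gCtl and at 5.66 and 7.14 RPM in g2, so the NR1I3 level is uncertain.

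RORA, an activator of clock and lipid genes, lies at chr15:60488284-61229319 on the minus strand. It stood at 10.2, 9.98, 13.0, 10.8 and 17.3 RPM in gCtl, at 5.26, 11.0 and 9.26 RPM in g1, and at 5.55 and 5.54 RPM in g2. The g2 libraries lay below gCtl, and g1 replicate 1 was as low. RORA fell by 0.99 on the log2 scale with g2 (SE 0.34, adjusted p = 0.0427, edgeR), and this call was lost in 7 of 23 alternatives, with glmTreat (0.262), in TPM (0.053) and without gCtl replicate 3 (0.073), gCtl replicate 4 (0.056), gCtl replicate 5 (0.0752), g2 replicate 1 (0.103) or g2 replicate 2 (0.175). NR1D2 (REV-ERBβ), which binds the same response elements as a repressor, ranged from 7.25 to 8.64 RPM in gCtl and from 3.23 to 8.81 RPM in the others and was not called.

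The remaining tested receptors were not called in any comparison. The oxysterol receptors NR1H3 (LXRα) and NR1H2 (LXRβ) had pooled log2 fold changes of 0.06 (SE 0.21) and 0.19 (SE 0.39). VDR, the vitamin D receptor, stood at 10.5 to 16.0 RPM in gCtl, 6.08 to 11.6 RPM in g1 and 12.6 and 13.5 RPM in g2, with values of -0.64 for g1 and 0.17 for g2. RARA, the tested retinoic acid receptor, ranged from 4.51 to 7.28 RPM in gCtl and from 6.005 to 9.89 RPM in the others, at a log2 fold change of 0.47 (SE 0.23). ESRRG, an estrogen-related orphan receptor, had a value of 0.24 (SE 0.22). NR4A2 (NURR1), an immediate early receptor, ranged from 1.25 to 3.05 RPM in gCtl and from 1.09 to 5.38 RPM in the others, at a value of 0.49 (SE 0.45).

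Genes that work with the receptors were described from 14 further lists. Over the 157 listed genes that are no member, 102 were tested and 17 were called in the labelled knockdown libraries, 11 higher and 6 lower, which was 16.7% beside 19.2% of all genes. Of the receptors outside the member list, HNF4A, a regulator of intestinal identity, ranged from 125 to 182 RPM in gCtl and from 78.2 to 138 RPM in the others, and its log2 fold change was -0.30 (adjusted p = 0.192, edgeR). Its paralog HNF4G rose, from 1.5 to 5.47 RPM in gCtl to 3.47 to 10.8 RPM, at 1.28 (SE 0.38, adjusted p = 0.0243, edgeR). This pooled call was lost in 7 of 23 alternatives, among them leaving out gCtl replicate 2, 3 or 4 or either g2 library (adjusted p 0.0524 to 0.0644, edgeR). HNF4G was called with g2 (1.83, adjusted p = 0.00308) and not with g1 (0.74, adjusted p = 0.165).

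Of 23 tested coregulators 3 were called with the guides pooled, or 13.0% beside 19.2% of all tested genes. LCOR, a corepressor bound by liganded receptors, rose by 0.86 (SE 0.16) and GPS2, a subunit of the NCoR and SMRT corepressor complex, rose by 0.68 (SE 0.21). GPS2 was called with g2 (0.97) and not with g1 (0.45, adjusted p = 0.151, edgeR), and its pooled call was lost in 7 of 23 alternatives, among them without gCtl replicate 2 (0.0812), gCtl replicate 3 (0.0631), gCtl replicate 4 (0.0819) or g2 replicate 2 (0.0778). The g2 call was lost without g2 replicate 2 (adjusted p = 0.166, edgeR). HDAC3, the deacetylase of the same complex, fell by 0.93 on the log2 scale (SE 0.22). Its levels were 12.5 to 20.5 RPM in gCtl and 5.19 to 10.3 RPM in the libraries with a guide. Of 16 tested genes that make, carry or break down ligands 4 were called with the guides pooled, beside 19.2% of all tested genes. HSD17B2, which inactivates estradiol and testosterone, rose by 0.72 (SE 0.16), ALDH1A1, a retinoic acid synthase, by 0.72 (SE 0.17), and RDH11, a retinal reductase, by 0.61 (SE 0.14). RDH11 was called with g1 (0.73) and not with g2 (0.41, adjusted p = 0.0819, edgeR). Its pooled value lay near the 1.5-fold minimum and lost the call in 10 of 23 alternatives, among them without gCtl replicate 1 (0.57), gCtl replicate 3 (0.58), g1 replicate 1 (0.51) or g1 replicate 2 (0.58). RBP2, the intestinal retinol carrier, fell by 0.85 on the log2 scale (SE 0.25), and its value was -0.51 with g1 and -1.59 with g2. The pooled RBP2 call was lost without gCtl replicate 2 (adjusted p = 0.0548, edgeR). Of the 16 ligand genes, 4 were called with g1, 7 with g2 and 4 between guides, beside 16.8, 23.7 and 4.98% of all genes. RBP4 was at 0.9 with g1 and -0.74 with g2 (adjusted p = 0.000885 and 0.008, edgeR). Without g2 replicate 2 the g2 call was lost (-0.63). RBP4 differed between the guides by -1.64 (SE 0.2, adjusted p = 0.000414, edgeR), a call kept in all 23 alternatives. LRAT was at 2.34 with g2 (adjusted p = 0.00476, edgeR), a call lost without g2 replicate 1 (0.9).

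With the guides pooled, where 19.2% of all tested genes were called, 1 gene each was called in the FXR, PXR and CAR, PPAR and glucocorticoid target lists. SDC1 was that gene of 4 tested FXR targets and fell by 1.53 on the log2 scale (SE 0.27), while SLC51A, a bile acid exporter subunit, had a value of 0.52 (SE 0.36) and FGF19 did not exceed 2.28 RPM. ABCC2, a drug and bilirubin exporter among 6 tested PXR and CAR targets, rose by 1.14 (SE 0.23), from 58.9 to 96.4 RPM in gCtl to 87.4 to 226 RPM, with ABCB1 at -0.11 (SE 0.31). With g2, 2 of the 6 were called beside 23.7% of all genes. ABCC2 was at 0.92 (adjusted p = 0.0201, edgeR) and CYP3A5, a drug-metabolizing cytochrome, at 0.68 (adjusted p = 0.0126, edgeR). Without g2 replicate 2 both calls were lost, with values of 0.39 for ABCC2 and 0.45 for CYP3A5. CYP3A4 and CYP2B6 were under the filter. Of 14 tested PPAR targets, SLC25A20, the mitochondrial carnitine carrier, fell by 2.29 on the log2 scale (SE 0.46), from 2.64 to 5.75 RPM in gCtl to 0.163 to 1.505 RPM. PLIN2, a lipid droplet protein, had a pooled value of 0.49 (adjusted p = 0.0567, edgeR), and PDK4 and ANGPTL4 were under the filter. With g1, 3 of the 14 were called beside 16.8% of all genes, since PLIN2 rose by 0.68 (adjusted p = 0.00967) and EHHADH, a peroxisomal oxidation enzyme, by 0.74 (adjusted p = 0.0238, edgeR) while SLC25A20 fell. With g2, 2 of the 14 were called beside 23.7%, SLC25A20 lower and CPT1A, which commits fatty acids to mitochondrial oxidation, higher at 1.02 (adjusted p = 0.0176, edgeR). The PLIN2 call was lost without g1 replicate 1 (0.0712), and that of EHHADH without gCtl replicate 1, 3 or 4 or g1 replicate 1 or 2 (adjusted p 0.0542 to 0.127, edgeR). The SLC25A20 call with g1 was lost without g1 replicate 3 (log2 fold change -1.51, adjusted p = 0.0726, edgeR). SLC25A20 passed the filter only through gCtl, the group in which it was higher. The CPT1A call was lost without g2 replicate 2, where its value was 0.69. FKBP5, a chaperone and the first gene of the glucocorticoid list, fell by 0.79 on the log2 scale (SE 0.14) and stood at 33.5 to 44.0 RPM in gCtl and 17.6 to 22.6 RPM in the libraries with a guide. It was one of 3 tested genes of that list, with TSC22D3 and PER1 under the filter. FKBP5 had values of -0.83 with g1 and -0.73 with g2, beside 0.07 and -1.64 for NR3C1. The FKBP5 call with g2 was lost without g2 replicate 2, where its value was -0.55.

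In the other target lists no gene was called with the guides pooled. Of 7 tested LXR targets 0 were called by edgeR in that comparison, with 1 at an unadjusted p under 0.05 and 1 called by DESeq2. ABCA1, a cholesterol exporter, had a pooled value of -0.30 (SE 0.47) and MYLIP, which degrades the LDL receptor, of -0.34 (SE 0.22), and ABCG1 was under the filter. With g2, 2 of the 7 fell, beside 13.0% of all genes called lower. ABCA1 was at -1.63 (adjusted p = 0.0376, edgeR), beside 0.18 with g1, and SCD, a fatty acid desaturase, at -0.91 (adjusted p = 0.0496). The ABCA1 call was lost without gCtl replicate 2, 3 or 5 or g2 replicate 2 (adjusted p 0.0553 to 0.307, edgeR), and the SCD call without g2 replicate 2 (0.477) and in 10 other alternatives, among them without gCtl replicate 1, 2, 3 or 4 or g1 replicate 1 or 2.

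Of 4 tested estrogen targets 0 were called by edgeR or DESeq2 with the guides pooled and 1 had an unadjusted p under 0.05, with GREB1 at -0.46 (SE 0.35) and TFF1 at 0.63 (SE 0.33). With g1, XBP1, a factor of the secretory stress response, fell by 0.83 on the log2 scale (adjusted p = 0.0107, edgeR), a call lost without g1 replicate 3 (0.0524). The vitamin D list had 2 tested genes, of which 0 were called by edgeR or DESeq2 with the guides pooled and 1 had an unadjusted p under 0.05, and CYP24A1, TRPV6 and S100G were under the filter. One of its genes, CLDN2, a claudin of leaky tight junctions, rose by 0.88 with g1 (adjusted p = 0.00945, edgeR) and was lower in g2 than in g1 by -1.26 (adjusted p = 0.0185, edgeR). The first of these calls was lost without g1 replicate 2 (0.0529), and the second without g1 replicate 2 (0.0644) or g2 replicate 2 (0.0763). Pooled, the thyroid hormone list had 2 tested genes, 0 called by edgeR, both at an unadjusted p under 0.05 and 1 called by DESeq2, with KLF9, THRSP and DIO1 under the filter. Of 4 tested retinoic acid targets 0 were called by edgeR or DESeq2 and 0 had an unadjusted p under 0.05 in the pooled comparison, with DHRS3 at 0.30 (SE 0.24) and CYP26A1 at 0 in every library. Neither of the last lists held an edgeR call with g1, with g2 or between the guides.

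Of 12 tested clock genes 2 were called with the guides pooled, or 16.7% beside 19.2% of all tested genes. NFIL3 rose by 0.75 (SE 0.25) and CRY1 fell by 0.76 on the log2 scale (SE 0.25), while ARNTL, CLOCK and NPAS2 had values of 0.15, -0.25 and 0.34. The NFIL3 call was lost in 14 of 23 alternatives, among them with any 1 gCtl library left out, or g1 replicate 1 or 3 or g2 replicate 2 (adjusted p 0.0626 to 0.105, edgeR). The CRY1 call was lost in 9, among them without gCtl replicate 1, 2, 3 or 4, g1 replicate 1 or 2 or g2 replicate 2 (0.0549 to 0.096), and CRY1 was not called with g1 (adjusted p = 0.0669) or g2 (0.141). CLOCK fell with g2, by 0.82 on the log2 scale (SE 0.18, adjusted p = 0.00383, edgeR), and was at 0.04 with g1, and the g2 call was lost without g2 replicate 2 (0.0661). Of 6 tested immediate early genes 3 were called with the guides pooled, beside 19.2% of all tested genes. FOS rose by 2.22 (SE 0.40), from 0.782 to 1.5 RPM in gCtl to 2.98 to 7.67 RPM, ATF3 by 1.29 (SE 0.34) and IER3 by 0.97 (SE 0.21). EGR1 and JUN had values of 0.49 (SE 0.40) and 0.65 (SE 0.29). FOS and HNF4G would not have passed the filter without the libraries with a guide, nor SLC25A20 without gCtl, in each case the group in which the gene was higher.

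**Figure D4:**
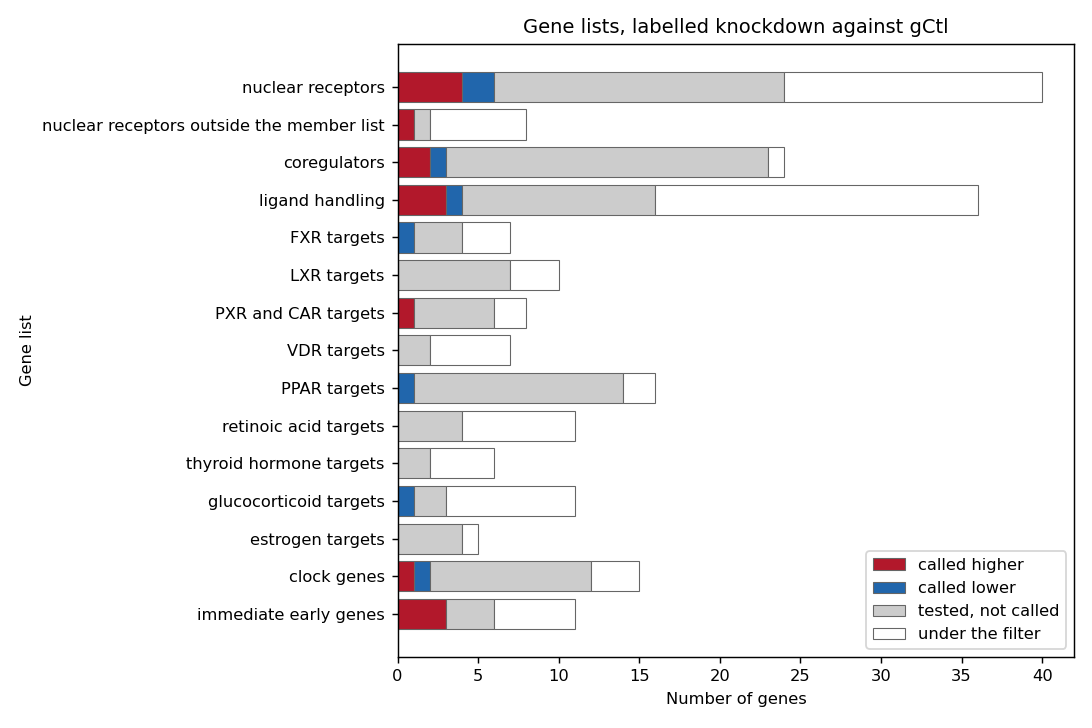
Number of genes in the nuclear receptor list and in 14 lists of related genes that were called higher (red), called lower (blue), tested and not called (grey) or under the filter (white) in the labelled knockdown libraries against gCtl. The receptor row shows 4 red, 2 blue, 18 grey and 16 white genes of 40.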

How the data were processed

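QuantSeq libraries of 10 Caco-2 samples were analysed. The authors pseudoaligned the reads to GENCODE transcripts with Kallisto (version 42.5 in the submitters' processing notes) and deposited the estimated counts of 199169 transcripts per library, neither normalized nor pooled. The annotation of these tables, GENCODE 24, is stated for the study's cohorts, and strand use is not given in the sources used here. Gene symbols were taken from the transcript names, estimated counts were summed per gene, and RPM (over all counts) and TPM (with annotated lengths) were computed here. Depth of 3838803 to 8730468 counts makes 1 count worth 0.115 to 0.261 RPM, and intervals of 0 counts cover counting error only.

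Sums were rounded and fitted with edgeR 4.0.16 (glmQLFit, glmQLFTest, TMM) in R 4.3.3, once with g1 and g2 pooled against gCtl and once with 3 groups, with Benjamini-Hochberg adjustment over 11640 genes. The common biological coefficient of variation was 0.238 and 0.205. Approximate 95% intervals are the estimate ± 1.96 SE. LHFPL3-AS2 was compared by an exact permutation test in scipy 1.17.1. The fits were tested on simulated data. Alternatives used DESeq2 1.42.0, limma 3.58.1, other normalizations, filters and pseudocounts, and each library left out. Coordinates are those of GENCODE 29 (GRCh38). Replicates of a group differed by more than sampling noise (chi-square per degree of freedom 4.29 to 26.1 over 14 pairs).

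The members, lists and tests were chosen with earlier results of these data known. Named were all 40 members, up to 4 called genes per list with the largest change, and the first 3 genes of each target list. Singled out after their values were seen were CLOCK, HLF and BHLHE40 with g2, RBP4, LRAT, CYP2R1, CYP27A1 and PNRC1. The same holds for the target genes called with 1 guide only (CYP3A5, EHHADH, CPT1A, SCD, XBP1 and CLDN2).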

Additional observations from a re-analysis of the deposited data

Results flagged for a closer look

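NR2F1 in g2 replicate 2 stood at 18.4 RPM, away from the other libraries labelled knockdown, whose highest and lowest values were 14.2 and 12.7 RPM. It was 1 of 48 such checks, of which chance gives about 1 in 20, and the library lay on the same side of gCtl as the others.

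Of the receptors, 3 differed between g2 and g1 by edgeR's quasi-likelihood test of the difference. The log2 difference was -0.87 for NR2F2 (SE 0.21, adjusted p = 0.025), -1.99 for NR2F6 (SE 0.29, adjusted p = 0.00124) and -1.70 for NR3C1 (SE 0.39, adjusted p = 0.0193). The g2 libraries also had the lower share of counts in tested genes, 55.0 and 58.2%, whose part in these differences was not tested.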

How the results depend on the processing

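Over 84 gene results and 23 alternatives, 14 of 40 called results kept their call in every one and 0 reversed. NR2F1 and THRB (pooled, g1 and g2), NR5A2 (pooled and g1), NR2F6 (g2, and g2 against g1) and NR2F2 (g2) were among the 14. The 84 covered receptors and, in the pooled comparison only, the listed genes named by size of change or place in the list. Outside them, the coregulator PNRC1 was called with g2 (1.18) and turned to -0.24 without g2 replicate 1. Testing against a fold of 1.5 with glmTreat left 3 receptors called pooled, 3 with g1, 5 with g2 and 1 between guides, and 3, 3, 7 and 1 of the other listed genes. Of all 11640 tested genes, glmTreat left 488, 506, 802 and 92 called in these comparisons. Leaving out 1 library gave 5 to 7 receptors pooled, 5 with g1, 7 to 9 with g2 and 2 to 4 between guides, and 12 to 23, 15 to 22, 16 to 29 and 4 to 10 other listed genes, the last being 4 without g1 replicate 2 and 5 without g1 replicate 1, and 16 with g2 without g2 replicate 2. For LHFPL3-AS2 the range was 0.29 to 0.63. With 1 library left out, 1703 to 2430 of all tested genes were called pooled and 1252 to 2262 with g1. With library totals in place of TMM, lower genes made up 73.3% of all calls with g2 in place of 54.9%, and 69.4% in place of 57.5% pooled, and the median of all genes with g2 moved to -0.16. One alternative, library sizes summed over the tested genes, was chosen after seeing the data.

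Signs turned for 10 results that were not called. With library totals, limma on log2(RPM + 1), log2(RPM + 0.1) and log2(TPM + 1), NR1H3 was -0.0202, -0.0421, -0.0459 and -0.51, and NR2C1 -0.00575, -0.0042, -0.00446 and -0.176. NR2C2 was -0.0827 with library totals, -0.0208 with all biotypes, -0.0789 and -0.0815 in RPM and -0.0706 with the length trend removed. In TPM, ESRRG was -0.366, ARNTL -0.268, NPAS2 -0.237 and PPARA between guides -0.143. NR3C1 with g1 was -0.011 and -0.012 in RPM and -0.0104 with the length trend removed. Leaving out 1 library turned the sign for NR1H3 (-0.0841 to 0.154), NR2C2 (-0.0548 to 0.0858), NR2F6 pooled (-0.475 to 0.0908), NR3C1 with g1 (-0.178 to 0.225), ABCB1 (-0.534 to 0.0941) and ARNTL (-0.0334 to 0.494). The cause was not tested. No paired analysis was possible because the labels give no replicate numbers. Depth limits receptors under 3 RPM, which rest on few counts.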
